A study of Mus musculus with 8 samples.

Results

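The genes described here build the machinery of DNA replication and mitosis. They were taken by gene symbol: 43 genes were listed, and each was found as 1 of the 24787 rows of the deposited table. Of these, 22 act at the G1/S transition or in S phase and are called S-phase members, from Mcm2 to E2f1. The other 21 act in G2 and mitosis and are called G2/M members, from Ccna2 to Foxm1. RNA was sequenced from 4T1 cells, a mouse mammary carcinoma line, in 8 libraries. The 4 shEtv5 libraries came from cells labelled as an Etv5 knockdown, made with an shRNA. The target gene encodes a transcription factor of the ETS family. The 4 shcontrol libraries came from cells labelled wild type that carried a control shRNA. All columns of a group bear 1 construct name, so as far as the labels tell each group holds a single shRNA. The labels do not say that replicates were separate cultures, so p-values measure only the spread between these libraries, which may be technical. The labels give no time point or dose.

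Replication begins when the MCM helicase is loaded onto origins with Cdc6 and Cdt1 and is then activated by Cdc45 and the GINS complex, after which DNA polymerases copy the strands. Genes of this phase are classic targets of E2F transcription factors, which cyclin D and cyclin E kinases release from the retinoblastoma protein. Genes of G2 and mitosis are instead repressed in resting cells by the DREAM complex and later driven by the MuvB core with B-MYB and FOXM1, which act at a promoter element called the CHR, often beside CCAAT boxes bound by NF-Y. Their transcripts oscillate in each division cycle, so in a growing culture such as 4T1 their level mirrors how many cells are cycling and in which phase.

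Promoter sequences of the 2 lists differ in E2F, CHR and CCAAT motifs. The lists hold genes of the kinds for which such motifs are described, so this difference is not independent of their choice. It does not bear on shEtv5 against shcontrol. RefSeq promoters of the GRCm38.p6 build, 250 bases before to 50 bases after the annotated start, could be matched to 32 of the 43 members, 16 on each list. The CHR was searched as TTTGAA or TTCGAA, the E2F motif as TTTGGCGC or TTTCGCGC and the CCAAT box as CCAAT, all on both strands. A CHR match was found in 81.2% of the G2/M promoters (13 of 16) and 18.8% of the S-phase promoters (3 of 16), against 19.2% of all 32851 promoters in the table. A CHR together with a CCAAT match was found in 81.2% of the G2/M and 18.8% of the S-phase promoters, against 7.52% of all. An E2F match was found in 6.25% of the G2/M promoters (1 of 16, Cdk1) and in 37.5% of the S-phase promoters (6 of 16: Mcm3, Mcm5, Mcm6, Mcm7, Cdt1 and Pola1), against 0.813% of all. CCAAT alone was found in 93.8% of the G2/M and 68.8% of the S-phase promoters, against 37.4% of all. A match is a description of the letters in the window and not evidence of binding.

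The promoters of 4 members are printed, in lower case with the motif matches in capitals and from 5′ to 3′ along the gene. Mcm5 (chr8:75109259-75109558, plus strand) and Mcm7 (chr5:138171834-138172133, minus strand) are shown because they encode subunits of 1 helicase whose values lay on opposite sides of shcontrol. Plk1 (chr7:122159185-122159484, plus strand) and Aurka (chr2:172370521-172370820, minus strand) are shown as kinase genes of the G2/M list with a CHR close to the start site.
Mcm5: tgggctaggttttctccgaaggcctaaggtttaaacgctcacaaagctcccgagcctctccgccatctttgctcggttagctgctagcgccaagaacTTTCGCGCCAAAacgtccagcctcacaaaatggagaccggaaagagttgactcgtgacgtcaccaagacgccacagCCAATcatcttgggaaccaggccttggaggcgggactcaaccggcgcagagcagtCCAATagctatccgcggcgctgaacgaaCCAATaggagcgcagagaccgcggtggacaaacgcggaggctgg
Mcm7: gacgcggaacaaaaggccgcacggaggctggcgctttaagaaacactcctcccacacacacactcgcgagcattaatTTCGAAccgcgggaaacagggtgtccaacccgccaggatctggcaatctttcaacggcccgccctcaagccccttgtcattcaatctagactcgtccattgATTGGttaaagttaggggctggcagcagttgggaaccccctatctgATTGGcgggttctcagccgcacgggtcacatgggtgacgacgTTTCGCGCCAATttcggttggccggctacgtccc
Plk1: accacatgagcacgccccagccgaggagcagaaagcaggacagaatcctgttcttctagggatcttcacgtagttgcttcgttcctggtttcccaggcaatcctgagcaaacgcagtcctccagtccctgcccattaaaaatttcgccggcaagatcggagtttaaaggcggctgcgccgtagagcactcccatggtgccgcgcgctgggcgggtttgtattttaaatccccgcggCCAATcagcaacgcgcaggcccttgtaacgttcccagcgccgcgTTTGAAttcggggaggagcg
Aurka: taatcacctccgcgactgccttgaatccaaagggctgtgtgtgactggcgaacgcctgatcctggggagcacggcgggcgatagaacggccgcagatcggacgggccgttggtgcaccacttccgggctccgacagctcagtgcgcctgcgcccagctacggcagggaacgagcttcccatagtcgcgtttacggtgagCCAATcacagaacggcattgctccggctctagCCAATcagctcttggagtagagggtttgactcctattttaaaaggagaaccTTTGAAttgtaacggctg
The first run of capitals in Mcm5 holds a pair of E2F matches that overlap on opposite strands, and its other capitals are CCAAT boxes. In Mcm7 the capitals begin with a CHR at base 78 and CCAAT boxes, on the strand opposite to the gene, at bases 179 and 225. Then come an E2F match at base 267 and a CCAAT box at base 274 that overlaps the E2F match. Plk1 has a CCAAT box at base 237 and a CHR at base 281. Aurka has CCAAT boxes at bases 200 and 232 and a CHR at base 283. Bases are counted from 1 at the 5′ end of each window. Mcm7 has 2 promoters in the table, and the first was used. The windows follow RefSeq starts, which can differ from the GENCODE gene coordinates given below. The Mcm7 window lies wholly inside the GENCODE gene (chr5:138164583-138172422). The Mcm5 window ends before the GENCODE start (chr8:75109569).

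Values were read as the depth-scaled coverage of a gene averaged over its bases. On that reading, which was not tested, levels are per length and can be compared between genes. They are given as coverage values. Their sum per library ran from 254792 to 390495, and read depth is unknown. All members were expressed: S-phase members had shcontrol means of 3.09 (Ccne1) to 464 (Ccnd1), with a median of 29.2, and G2/M members of 11.4 (Cenpf) to 157 (Ube2c), with a median of 34.8. shEtv5 replicate 3 stood apart from the other 7 libraries. Its sum was the highest, 13920 genes were above 0 in it against 15126 to 15379 in the others, and ribosomal protein genes made up 21.2% of its sum against 7.63% to 11.6%. The 43 members held 0.476% of its sum, against 0.755% to 0.951% in the other libraries. Etv5 itself had coverage values of 13.0, 11.2, 7.52 and 12.7 in shEtv5 replicates 1 to 4, against 15.2, 15.1, 11.7 and 14.4 in shcontrol, so the groups overlapped (adjusted p = 0.819 by limma over 8 libraries, 0.422 without shEtv5 replicate 3). All 7 epithelial markers were above the filter on low values, with summed values of 1340 to 3140 in shEtv5 and 1320 to 1800 in shcontrol. The sum of 3140 was that of shEtv5 replicate 3. Krt18 was at 1534 there, against 545.4 to 646.4 in the other shEtv5 libraries. Of markers of other cell types, 2 of 6 for leukocytes (Cd68 and Cd74; sums of 9.82 to 18.1 in shEtv5 and 11.6 to 14.9 in shcontrol, Cd3e at 0), 1 of 5 for fibroblasts (Pdgfra; sums of 0.641 to 2.59 and 2.71 to 3.6, Dcn at 0) and 0 of 4 for endothelium passed it (sums of at most 0.125 and 0.0502); their part in the results was not tested. In shEtv5, the highest leukocyte sum and the lowest fibroblast sum were both those of replicate 3. The epithelial cadherin gene Cdh1 was called higher (log2 fold change 0.71, adjusted p = 0.00449 by limma) without shEtv5 replicate 3, and Pdgfra lower (-0.50, adjusted p = 0.0446). The other epithelial markers were not called in that fit and lay on both sides of shcontrol. Epcam, Krt8 and Krt18 had log2 fold changes of -0.04, -0.03 and -0.13, and Krt7, Krt19 and Cldn4 of 0.26, 0.17 and 0.31. The call of Cdh1 held under all 16 other settings (adjusted p = 0.000145 to 0.0419) and that of Pdgfra under 8 of 16 (0.00184 to 0.189). Cd74 was below all shcontrol libraries in these shEtv5 libraries without a call (-0.30, adjusted p = 0.288), and no marker was called over 8 libraries as deposited.

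No member passed the test in either direction, with all 8 libraries or without shEtv5 replicate 3. The test was limma on log2(value + 1), run over all genes that reached 0.5 in 4 or more libraries, and calls were made at an adjusted p under 0.05. Over 8 libraries 0 of 43 members were called, at a background of 0.00852% of 11731 tested genes called higher and 0.486% called lower. Again 0 of 43 were called without shEtv5 replicate 3, where 1.09% of 11685 tested genes were called higher and 2.06% lower. At an unadjusted p under 0.05, 1 member (Ccne1, higher) passed over 8 libraries, against 7.09% of all tested genes, and 10 higher and 1 lower passed without shEtv5 replicate 3, which is 25.6% of the members against 18.8% of all tested genes. The members with the lowest adjusted p in the 7-library fit were Rrm2 (0.0564), Ccne1 (0.0750), Mcm7 (0.120), Ccna2 (0.131), Plk1 (0.133), Mcm5 (0.148), Ccnb1 (0.207) and Mcm2 (0.217).

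With all 8 libraries, the side of shcontrol on which most members lay depended on the scaling, and without shEtv5 replicate 3 most lay above it under each scaling tried. Over 8 libraries 20 of 43 members had a positive log2 fold change (shEtv5 over shcontrol), 10 of 22 on the S-phase and 10 of 21 on the G2/M list, against 31.0% of all tested genes. This count was 12 with equal sums (21.7% of all genes), 24 with quantile normalisation (50.6%), 34 with median-of-ratios scaling (54.1%) and 34 with the trend of each library with transcript length removed (50.2%). Without shEtv5 replicate 3 it was 33 of 43, 14 of 22 on the S-phase and 19 of 21 on the G2/M list, against 49.6% of all tested genes, and 34 to 39 of 43 under the other 3 scalings (51.4% to 57.5% of all). Fold changes in this fit still rose with transcript length, and with that trend removed 35 of 43 were positive (50.3% of all). The median log2 fold change over 8 libraries was -0.02 for S-phase members and 0.00 for G2/M members, against -0.11 for all tested genes, and it was 0.15 and 0.17 with median-of-ratios scaling and 0.07 and 0.08 with the length trend removed. Without shEtv5 replicate 3 it was 0.08 for S-phase members and 0.16 for G2/M members, against 0.00 for all. These are small differences: the largest and smallest fitted values without shEtv5 replicate 3 were 0.41 (Ccne1) and -0.26 (Mcm7), and 0.44 (Ccne1) and -0.37 (Mcm4) over 8 libraries.

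**Figure D1:**
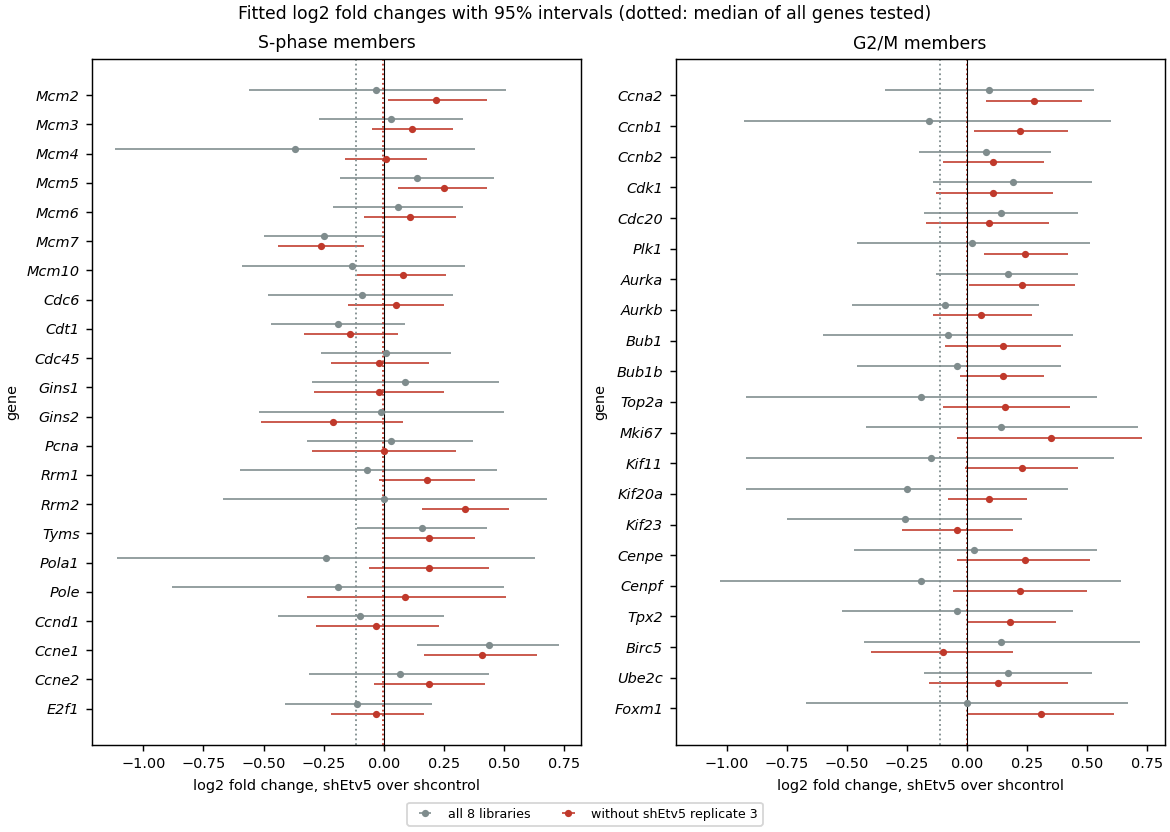
Fitted log2 fold change of each member, shEtv5 over shcontrol on the log2(value + 1) scale, with its 95% interval from limma, for all 8 libraries (grey) and without shEtv5 replicate 3 (red). Dotted lines mark the median of all tested genes, at -0.11 and 0.00. Without replicate 3 the intervals are narrower and 33 of 43 points lie above 0.

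Groups of values that did not overlap at all were few over 8 libraries. Ccne1 was the only member with every shEtv5 library above every shcontrol library (1.52% of all tested genes), and Mcm7 and Cdt1 were the 2 with every shEtv5 library below (7.58% of all tested genes). In the 7 libraries without shEtv5 replicate 3, the groups did not overlap in 12 members with shEtv5 above, against 9.78% of all tested genes: 6 of 22 S-phase members (Mcm2, Mcm3, Mcm5, Rrm2, Tyms and Ccne1) and 6 of 21 G2/M members (Ccna2, Ccnb1, Plk1, Bub1b, Kif20a and Foxm1). The 2 members with shEtv5 below were again Mcm7 and Cdt1, against 10.5% of all tested genes. The count of 12 was 23 when shEtv5 replicate 4 was left out as well (18.8% of all tested genes), and 18 when shcontrol replicate 3 was (15.0% of all). The count of 2 was 2 and 3 in these (16.6% and 16.3% of all). The count of 12 stayed at 12 without shEtv5 replicate 1 or 2 or shcontrol replicate 1 or 2, and was 16 without shcontrol replicate 4. The count of 2 was 3 without shcontrol replicate 4 and otherwise unchanged. The share of all genes was not counted in those fits. With fewer libraries a lack of overlap is more frequent for any gene. The gap between groups was small in most of them. Mcm2 ran from 39.4 to 43.6 in shEtv5 replicates 1, 2 and 4, against 31.1 to 37.1 in shcontrol, and Mcm3 from 70.8 to 71.8, against 62.5 to 66.9. Tyms ran from 10.8 to 10.95 in these shEtv5 libraries, against 8.885 to 10.3 in shcontrol, Bub1b from 25.6 to 28.2, against 23.2 to 25.3, and Kif20a from 34.2 to 35.4, against 31.8 to 33.97. In shEtv5 replicate 3 all 5 of these were below their shEtv5 range, with Mcm2 at 20.04, Mcm3 at 55.4, Tyms at 9.885, Bub1b at 15.6 and Kif20a at 13.1.

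Among the S-phase members, the MCM helicase subunits did not move as a block. Mcm2 to Mcm7 encode the 6 subunits of the ring that unwinds DNA. Mcm5 (chr8:75109569-75128439, plus strand, mm10) had coverage values of 68.0, 64.6, 51.0 and 72.1 in shEtv5 replicates 1 to 4, against 54.8, 60.6, 57.8 and 56.5 in shcontrol. All shEtv5 libraries but replicate 3 lay above all shcontrol libraries. Without that replicate the mean was 68.3 ± 3.76 (SD, n = 3) in shEtv5 and 57.4 ± 2.44 (SD, n = 4) in shcontrol, 1.19-fold, with a log2 fold change of 0.25 (95% interval 0.06 to 0.43, adjusted p = 0.148 by limma).

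Mcm7 (chr5:138164583-138172422, minus strand) ran the other way, with 68.9, 63.2, 68.8 and 67.6 in shEtv5, against 79.3, 79.8, 82.2 and 77.8 in shcontrol. The groups did not overlap, and here shEtv5 replicate 3 lay with the other shEtv5 libraries. The mean was 67.1 ± 2.7 in shEtv5 and 79.8 ± 1.85 in shcontrol (SD, n = 4 each), and the log2 fold change was -0.25 over 8 libraries (95% interval -0.50 to 0.00, adjusted p = 0.713 by limma) and -0.26 without replicate 3 (-0.44 to -0.08, adjusted p = 0.120). Mcm7 made up 19.1%, 17.7%, 25.9% and 18.7% of the summed coverage of the 6 subunits in shEtv5, against 23.5%, 22.8%, 23.6% and 22.5% in shcontrol. It was the highest subunit in all 4 shcontrol libraries and in shEtv5 replicate 3, while Mcm3 was highest in shEtv5 replicates 1 and 2 and Mcm5 in replicate 4. Of the 50-base stretches of its transcript, 34.2% also occur elsewhere, most of them in the processed pseudogene Gm5487, so its level is uncertain.

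Mcm4 had the lowest log2 fold change of the S-phase list over 8 libraries, and 1 library made it so. It had 51.5, 52.8, 17.2 and 48.5 in shEtv5, against 49.6, 51.1, 50.01 and 51.7 in shcontrol. Replicate 3 was at 0.334 of the median of the other shEtv5 libraries, which themselves overlapped with shcontrol. The log2 fold change was -0.37 over 8 libraries (95% interval -1.12 to 0.38, adjusted p = 0.879 by limma) and 0.01 without replicate 3 (-0.16 to 0.18, adjusted p = 0.964). Mcm2, Mcm3 and Mcm6 had log2 fold changes of 0.22, 0.12 and 0.11 without replicate 3, and none of the 6 subunits was called. At an unadjusted p under 0.05 by limma, 3 of the 6 passed without replicate 3 (Mcm2 and Mcm5 higher, Mcm7 lower), where 18.8% of all tested genes did, and 0 over 8 libraries.

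The genes that load and activate the helicase lay close to shcontrol. Cdc6 and Cdt1 load the MCM ring, Mcm10 and Cdc45 help start it, and Gins1 and Gins2 are subunits of the GINS complex. Their log2 fold changes ran from -0.19 (Cdt1) to 0.09 (Gins1) over 8 libraries and from -0.21 (Gins2) to 0.08 (Mcm10) without shEtv5 replicate 3, and 0 of 6 were called by limma or reached an unadjusted p under 0.05 in either fit. Cdt1 had 95.9, 88.7, 80.9 and 98.2 in shEtv5, against 101.8, 101.8, 109.9 and 101.2 in shcontrol. Its groups did not overlap, by a narrow margin, and its adjusted p by limma was 0.863 over 8 libraries and 0.427 without replicate 3. Gins2 had 29.1 in shEtv5 replicate 3, against 15.3 to 16.9 in the other shEtv5 libraries, but 70.3% of the 50-base stretches of its transcript lie in the overlapping gene Gse1.

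Of the genes that supply nucleotides, Rrm2 came nearest to a call. Rrm2 (chr12:24708241-24714146, plus strand) encodes the small subunit of ribonucleotide reductase, whose level limits dNTP synthesis in S phase. It had 75.5, 74.2, 29.0 and 74.6 in shEtv5, against 56.5, 60, 57.0 and 62.6 in shcontrol. The other 3 shEtv5 libraries sat within a narrow band above all shcontrol libraries, while replicate 3 lay far below them. Without it the mean was 74.8 ± 0.688 in shEtv5 (SD, n = 3) and 59.0 ± 2.83 in shcontrol (SD, n = 4), 1.27-fold, with a log2 fold change of 0.34 (SE 0.0795, 95% interval 0.16 to 0.52, adjusted p = 0.0564 by limma). Over 8 libraries the log2 fold change was 0.00 (-0.67 to 0.68, adjusted p = 0.997).

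The large subunit gene Rrm1 had a log2 fold change of 0.18 and the thymidylate synthase gene Tyms of 0.19 without replicate 3 (adjusted p = 0.312 and 0.261). Pcna encodes the sliding clamp that tethers polymerases to DNA. It had 114, 119.6, 129 and 126 in shEtv5, against 110.1, 119.8, 152 and 102 in shcontrol. The groups overlapped, shcontrol replicate 3 was the highest of all, and the log2 fold change was 0.03 over 8 libraries and 0.00 without shEtv5 replicate 3 (95% interval -0.30 to 0.30, adjusted p = 1.00 by limma). Of its 50-base stretches 31.8% also occur elsewhere, most of them in the pseudogene Pcna-ps2. The polymerase catalytic subunit genes Pola1 and Pole had log2 fold changes of 0.19 and 0.09 without shEtv5 replicate 3, where they were at 0.226 and 0.421 of the median of the other shEtv5 libraries.

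Ccne1 had the largest positive log2 fold change of the 43 members in both fits. It encodes cyclin E1, which activates CDK2 at the G1/S transition. Ccne1 (chr7:38097984-38107534, minus strand) had 4.64, 4.42, 4.83 and 4.18 in shEtv5, against 3.27, 2.52, 3.09 and 3.48 in shcontrol. All 4 shEtv5 libraries, replicate 3 included, lay above all shcontrol libraries. The mean was 4.52 ± 0.280 in shEtv5 and 3.09 ± 0.411 in shcontrol (SD, n = 4 each), with a log2 fold change of 0.44 over 8 libraries (95% interval 0.14 to 0.73, adjusted p = 0.380 by limma). Without replicate 3 it was 0.41 (0.17 to 0.64, adjusted p = 0.0750), which is a 1.43-fold ratio of means. Ccne1 was the lowest S-phase member, so the log2(value + 1) scale understates its ratio. The paralog Ccne2, cyclin E2, had a log2 fold change of 0.19 (-0.04 to 0.42) without replicate 3, and the ratio of Ccne1 to Ccne2 was 0.801, 0.692, 1.27 and 0.834 in shEtv5, against 0.712, 0.506, 0.567 and 0.763 in shcontrol. Of the 50-base stretches of Ccne2, 17.4% also occur in the gene Ints8.

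Neither Ccnd1 nor E2f1 separated the groups. Ccnd1 encodes cyclin D1, which links growth signals to CDK4 and CDK6, and was the highest of the 43 members. It had 462, 442, 373 and 459 in shEtv5, against 474, 477, 419 and 484 in shcontrol. Replicate 3 was the lowest library of each group, the groups overlapped, and the log2 fold change was -0.10 over 8 libraries and -0.03 without shEtv5 replicate 3 (95% interval -0.28 to 0.23, adjusted p = 0.919 by limma). Of the 50-base stretches of Ccnd1, 27.2% also occur in the gene LTO1, so its level is uncertain. E2f1, the E2F family's best-known activator, had 13.8, 12.2, 10.5 and 14.4 in shEtv5, against 13.3, 13.6, 14.4 and 13.5 in shcontrol. Its groups overlapped as well, with a log2 fold change of -0.11 over 8 libraries and -0.03 without replicate 3 (-0.22 to 0.17, adjusted p = 0.898). The sign of both values turned under some settings.

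**Figure D2:**
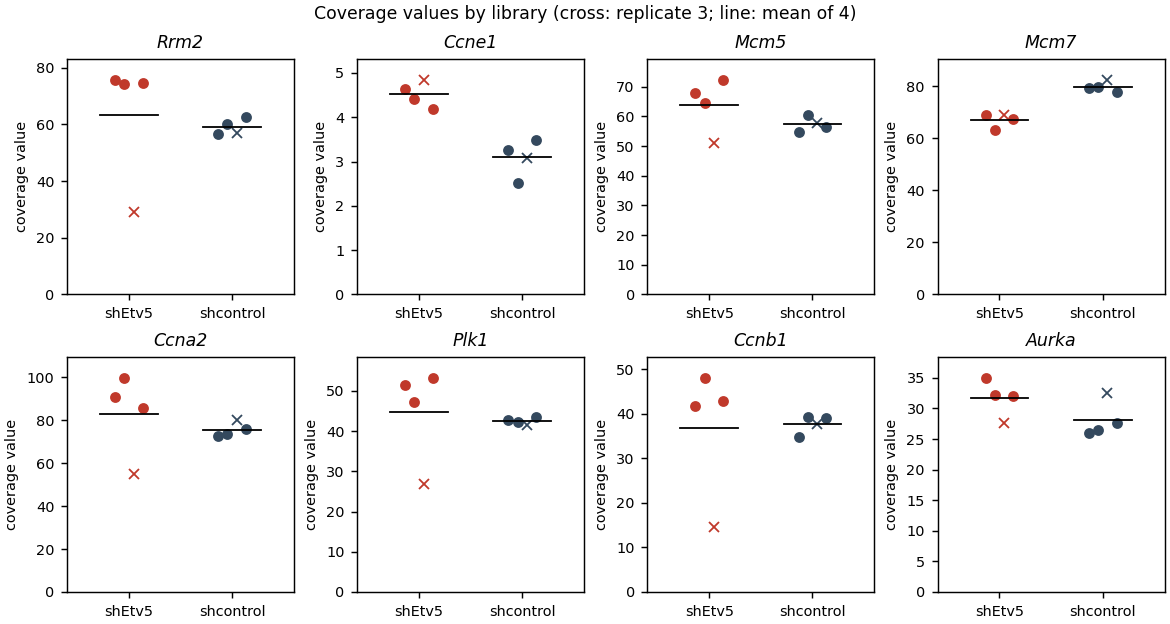
Coverage value of 8 members in each library, shEtv5 left of shcontrol, with replicate 3 of each group as a cross and the mean of the 4 libraries as a line. Ccne1 lies higher and Mcm7 lower in all 4 shEtv5 libraries, while in Rrm2, Ccna2, Plk1 and Ccnb1 shEtv5 replicate 3 lies below all the others.

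Among the G2/M members, the cyclin genes Ccna2 and Ccnb1 lay above all shcontrol libraries in 3 shEtv5 libraries without passing the test, while the groups overlapped for Ccnb2 and Cdk1. Ccna2 (chr3:36564865-36572150, minus strand) encodes cyclin A2, which acts from S phase into G2. It had 91.0, 99.7, 54.8 and 85.8 in shEtv5, against 72.6, 73.8, 80.3 and 76.1 in shcontrol. All shEtv5 libraries but replicate 3 lay above all shcontrol libraries, and without it the mean was 92.2 ± 7.03 in shEtv5 (SD, n = 3) and 75.7 ± 3.38 in shcontrol (SD, n = 4), 1.22-fold. The log2 fold change was 0.28 (95% interval 0.08 to 0.48, adjusted p = 0.131 by limma), against 0.09 over 8 libraries (-0.34 to 0.53, adjusted p = 0.899). Of its 50-base stretches 15.9% lie in the overlapping gene Exosc9.

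Ccnb1 encodes cyclin B1, the CDK1 partner that drives entry into mitosis. It had 41.8, 48.0, 14.5 and 42.9 in shEtv5, against 34.9, 39.2, 37.6 and 39.1 in shcontrol. Replicate 3 was at 0.339 of the median of the other shEtv5 libraries, and its inclusion turned the log2 fold change to -0.16 (95% interval -0.93 to 0.60, adjusted p = 0.900 by limma), against 0.22 without it (0.03 to 0.42, adjusted p = 0.207). Of its 50-base stretches 42.1% also occur elsewhere, most in the pseudogene Ccnb1-ps. Ccnb2, which encodes cyclin B2 and shares no stretch, had a log2 fold change of 0.11 without replicate 3 and overlapping groups.

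Cdk1 encodes the kinase that these cyclins activate. It had 65.2, 64.6, 80.4 and 64.5 in shEtv5, against 53.4, 59.9, 71.8 and 55.6 in shcontrol. Replicate 3 was the highest library of each group, and of shcontrol it alone reached into the shEtv5 range. The log2 fold change was 0.19 over 8 libraries (95% interval -0.14 to 0.52, adjusted p = 0.879 by limma), the largest of the G2/M list, and 0.11 without shEtv5 replicate 3 (-0.13 to 0.36, adjusted p = 0.606). Foxm1 encodes a transcription factor of G2/M genes. It had 40.8, 39.8, 16.4 and 39.0 in shEtv5, against 34.3, 34.3, 24.2 and 37.0 in shcontrol. Here replicate 3 was the lowest library of each group, and the log2 fold change was 0.00 over 8 libraries (-0.67 to 0.67, adjusted p = 0.999) and 0.31 without shEtv5 replicate 3 (0.00 to 0.61, adjusted p = 0.259).

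The kinases Plk1 and Aurka build and orient the spindle. Plk1 (chr7:122159439-122169873, plus strand) had 51.4, 47.3, 26.9 and 53.2 in shEtv5, against 42.7, 42.3, 41.6 and 43.6 in shcontrol. The shcontrol libraries lay close together, and all shEtv5 libraries but replicate 3 lay above them. Without replicate 3 the mean was 50.6 ± 3.06 in shEtv5 (SD, n = 3) and 42.5 ± 0.824 in shcontrol (SD, n = 4), 1.19-fold, with a log2 fold change of 0.24 (95% interval 0.07 to 0.42, adjusted p = 0.133 by limma); over 8 libraries it was 0.02 (-0.46 to 0.51, adjusted p = 0.974). Aurka had 35.0, 32.2, 27.7 and 32.0 in shEtv5, against 26.0, 26.5, 32.6 and 27.6 in shcontrol. Only shcontrol replicate 3 reached into the range of shEtv5 replicates 1, 2 and 4. The log2 fold change was 0.17 over 8 libraries (-0.13 to 0.46, adjusted p = 0.879) and 0.23 without shEtv5 replicate 3 (0.01 to 0.45, adjusted p = 0.244). The spindle assembly factor Tpx2, which activates Aurora A, had 0.18 without replicate 3 (adjusted p = 0.268).

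The checkpoint kinase genes Bub1 and Bub1b and the genes for the anaphase-promoting complex's activator Cdc20 and its E2 enzyme Ube2c had log2 fold changes of 0.09 to 0.15 without shEtv5 replicate 3, and 0 of 4 were called by limma or reached an unadjusted p under 0.05. Of the chromosomal passenger complex, the Aurora B gene Aurkb had 0.06 and the survivin gene Birc5 -0.10. Birc5 had 26.8, 26.8, 54.8 and 27.6 in shEtv5, against 25.8, 27.97, 38.2 and 26.1 in shcontrol. In both groups replicate 3 was far above the rest, which is the opposite of Plk1 and Ccnb1 in shEtv5.

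Top2a, Mki67 and Cenpf encode topoisomerase II alpha, the proliferation marker Ki-67 and a kinetochore protein. Top2a had 143, 157, 52.9 and 128 in shEtv5, against 134, 125, 109 and 142 in shcontrol. Mki67 had 45.7, 47.0, 24.3 and 38.6 in shEtv5, against 39.7, 34.3, 24.0 and 41.1 in shcontrol. In both genes replicate 3 was the lowest library of each group and the groups overlapped. The log2 fold change of Top2a was -0.19 over 8 libraries and 0.16 without shEtv5 replicate 3 (95% interval -0.10 to 0.43, adjusted p = 0.493 by limma), and that of Mki67 was 0.14 and 0.35 (-0.04 to 0.73, adjusted p = 0.317). Mki67 thus had the largest G2/M value without replicate 3, with the widest interval of that list. Cenpf had -0.19 over 8 libraries and 0.22 without replicate 3, in which it was at 0.271 of the median of the other shEtv5 libraries.

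The mitotic motor genes Kif11, Kif20a, Kif23 and Cenpe encode kinesins of spindle poles, midzone and kinetochores. Kif23, a subunit of centralspindlin, had the lowest log2 fold change of the G2/M list over 8 libraries. It had 41.7, 46.8, 22.6 and 37.2 in shEtv5, against 42.5, 42.0, 40.1 and 47.5 in shcontrol. The groups overlapped even without replicate 3, and the log2 fold change was -0.26 over 8 libraries (95% interval -0.75 to 0.23, adjusted p = 0.879 by limma) and -0.04 without it (-0.27 to 0.19, adjusted p = 0.856). Kif11, Kif20a and Cenpe had 0.23, 0.09 and 0.24 without replicate 3, and 0 of the 4 were called by limma or reached an unadjusted p under 0.05. Of the 50-base stretches of Kif20a, 31.2% also occur in the gene Cdc23. Fewer cells in a phase and less RNA per cell cannot be told apart in these bulk libraries, for any member.

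**Figure D3:**
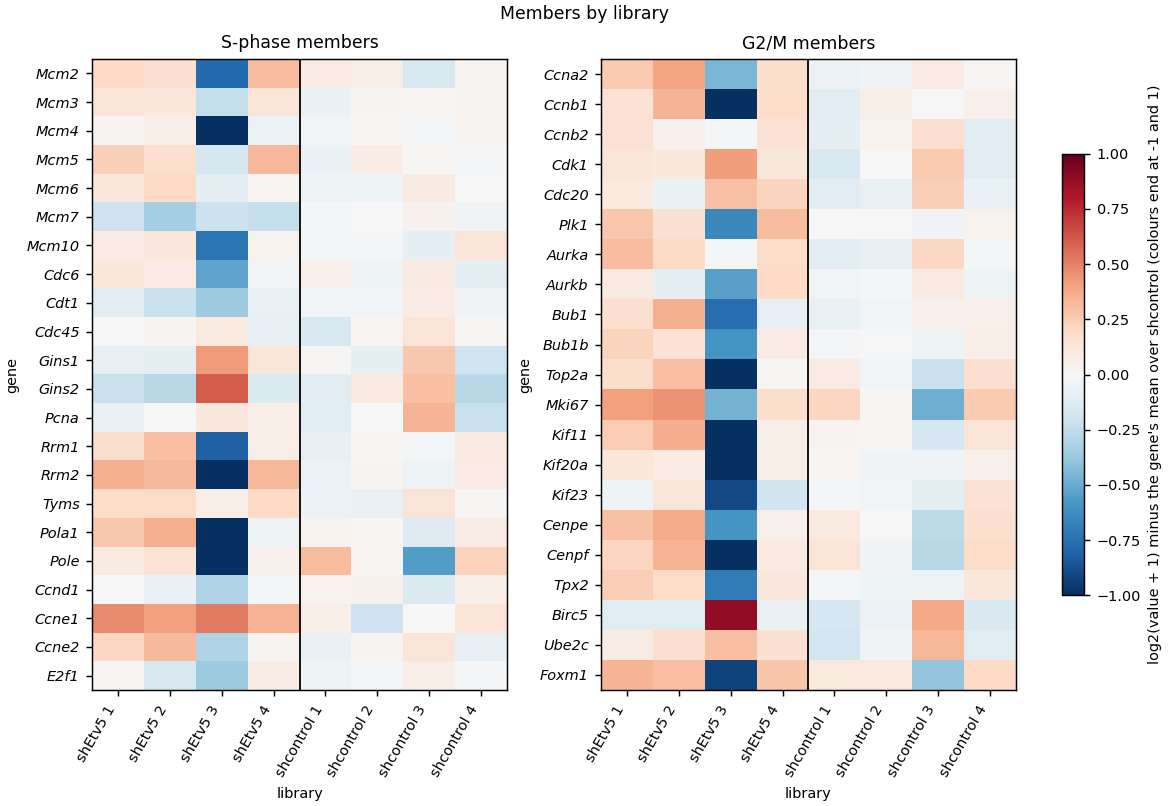
Log2(value + 1) of each member in each library minus the gene's mean over the 4 shcontrol libraries, for S-phase members (left) and G2/M members (right). shEtv5 replicate 3 is the one column with values near or past -1, with Birc5 and Gins2 among its 10 positive cells, while the other shEtv5 columns are mostly pale red.

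The 2 lists were then compared within each library, as the median over members of log2(value + 1) minus the gene's shcontrol mean. For G2/M members the median was 0.173, 0.187, -0.595 and 0.116 in shEtv5 replicates 1 to 4, against -0.023, -0.024, -0.031 and 0.053 in shcontrol. For S-phase members it was 0.10, 0.108, -0.305 and 0.039 in shEtv5, against -0.035, 0.012, 0.030 and 0.009 in shcontrol. Both lists lay above all shcontrol libraries in shEtv5 replicates 1, 2 and 4 and far below them in replicate 3. Over all tested genes the median was 0.015, -0.009, -0.490 and -0.002 in shEtv5 and within -0.019 to 0.015 in shcontrol, so replicate 3 lay below shcontrol there too.

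The G2/M median minus the S-phase median was 0.073, 0.079, -0.290 and 0.077 in shEtv5, against 0.012, -0.035, -0.061 and 0.044 in shcontrol. The G2/M list thus stood further from shcontrol than the S-phase list in each shEtv5 library, upward in 3 and downward in replicate 3, and no test of this difference was made. The number of members above their shcontrol mean was 35, 33, 10 and 32 of 43 in shEtv5, against 15, 22, 23 and 27 in shcontrol. By role, the 3 nucleotide supply genes had a median log2 fold change of 0.19 without replicate 3 and 0.00 over 8 libraries, and the 6 loading and activation genes of -0.02 and -0.05. Differences between roles were not tested. Within the G2/M list the medians without replicate 3 ran from -0.02 (chromosomal passenger complex) to 0.23 (mitotic kinases and spindle assembly).

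**Figure D4:**
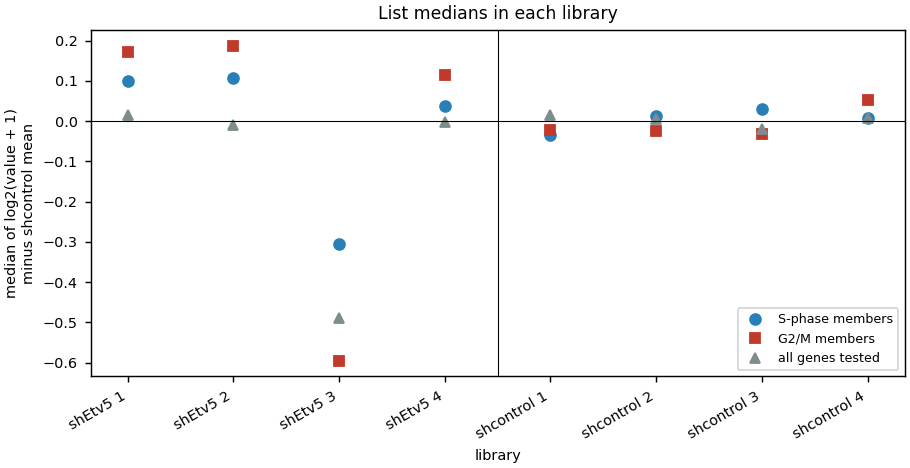
Median over S-phase members, G2/M members and all tested genes of log2(value + 1) minus the gene's shcontrol mean, in each library. In shEtv5 replicates 1, 2 and 4 the G2/M median is highest (0.116 to 0.187), and in replicate 3 it is lowest (-0.595).

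The deviation of shEtv5 replicate 3 moved with transcript length. Among all tested genes, its median deviation from the median library was 0.44 in the 25% with the shortest transcripts and -1.06 in the 25% with the longest. In shcontrol replicate 3 these medians were 0.27 and -0.28. Over the 43 members, Spearman's rho between transcript length and the deviation of a library from the other 3 of its group was -0.62 in shEtv5 replicate 3 and -0.72 in shcontrol replicate 3, and between -0.56 and 0.64 in the other libraries, as a description over genes that share a library. Birc5 and Ube2c, with the shortest transcripts of the G2/M list, were at 2.04 and 1.11 times the median of the other shEtv5 libraries in replicate 3, and Cenpf and Mki67, with the longest, at 0.271 and 0.532. Cdk1 and Gins2, whose longest principal transcripts are annotated at 4375 and 3900 bases, lay above the median. Which transcript was expressed is unknown, and 70.3% of the 50-base stretches of Gins2 are shared with Gse1. The median length was 3421 bases for G2/M members, 3018 for S-phase members and 2880 for all tested genes. The log2 fold changes moved with length in both fits. Without shEtv5 replicate 3, rho was 0.49 over G2/M members, 0.12 over S-phase members and 0.32 over all tested genes with a length. Over 8 libraries it was -0.38, -0.43 and -0.34. How far length accounts for the distance between the 2 lists was not tested.

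**Figure D5:**
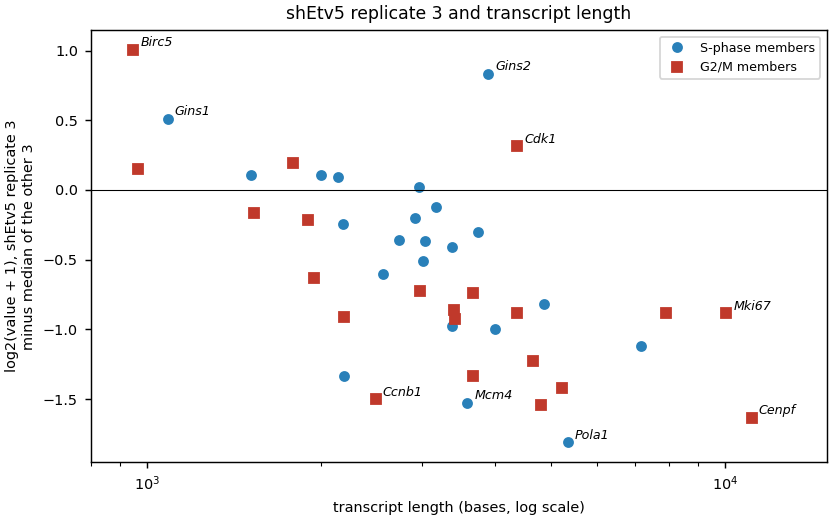
Difference in log2(value + 1) between shEtv5 replicate 3 and the median of the other 3 shEtv5 libraries, against the length of the longest principal transcript in bases (log axis), for S-phase members (circles) and G2/M members (squares). Short transcripts such as Birc5 lie above 0 and long ones such as Pola1 and Cenpf lie below, with Cdk1 and Gins2 above 0 at 4375 and 3900 bases.

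Calls among the members appeared once this trend was removed from the 7 libraries. With each library's trend with length subtracted, Rrm2 (log2 fold change 0.37, adjusted p = 0.0152 by limma), Ccne1 (0.45, 0.0329), Aurka (0.27, 0.0359), Plk1 (0.27, 0.0368) and Ccna2 (0.28, 0.0435) were called higher and Mcm7 (-0.26, 0.0270) lower, against 4.36% of 11517 genes called higher and 4.82% called lower. With the trend with GC content subtracted too, an alternative added after the data were seen, 9 members were called higher (these 5 with Mcm2, Mcm5, Foxm1 and Ube2c) and Mcm7 lower, against 6.38% and 6.16% of all. Leaving out shcontrol replicate 3 as well as shEtv5 replicate 3 gave 4 members called higher (Rrm2, Aurka, Ccna2 and Ccne1) and 0 lower, against 3.59% and 5.25% of 11591 genes. Over all 8 libraries neither trend correction gave a called member, and nor did leaving out shcontrol replicate 3 alone.

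Other genes of the same pathways were counted from lists made by gene name. Of 50 other replication genes, 0 were called in either fit; without shEtv5 replicate 3 their median log2 fold change was -0.01, with 24 of 50 positive. At an unadjusted p under 0.05 by limma 6 of the 50 passed, 12% against 18.8% of all tested genes, and 0 over 8 libraries, against 7.09%. The lowest adjusted p belonged to Asf1b, a histone chaperone (log2 fold change 0.38, adjusted p = 0.0624 by limma), and Orc2, an origin recognition complex subunit (0.48, 0.0728). Of 55 other mitosis genes 0 were called in either fit. Without replicate 3, 44 of 55 were positive, with a median of 0.12 against 0.00 for all tested genes, and over 8 libraries 21 of 55, with a median of -0.06 against -0.11. The share at an unadjusted p under 0.05 without replicate 3 was 18.2% (9 higher, 1 lower), near the 18.8% of all tested genes, and it was 0 of 55 over 8 libraries. The lowest adjusted p there belonged to the cytokinesis genes Racgap1 (0.30, 0.0853) and Prc1 (0.29, 0.111), which act with Kif23 at the spindle midzone.

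The lists of regulators held 1 called gene each, in the fit without shEtv5 replicate 3 only. Of 23 other G1/S regulators and CDK inhibitors 19 were tested, and without replicate 3 Ccng2 fell. Of the 19 it alone was called there, where 1.09% of all tested genes were called higher and 2.06% lower. Ccng2 encodes cyclin G2, an atypical cyclin that restrains proliferation. It had 11.8, 11.1, 4.82 and 12.3 in shEtv5, against 21.2, 20.0, 21.7 and 19.3 in shcontrol. The groups were well apart in all 8 libraries, and the log2 fold change was -0.76 without replicate 3 (adjusted p = 0.00132 by limma) and -1.04 with it (adjusted p = 0.256). The call without replicate 3 held under all 16 other settings tried (adjusted p = 0.000273 to 0.0150). The CDK inhibitor gene Cdkn1a had 8.26, 7.39, 6.26 and 9.12 in shEtv5, against 10.6, 11.3, 11.2 and 10.4 in shcontrol, with a log2 fold change of -0.36 without replicate 3 (adjusted p = 0.0723); it was singled out after its values were seen. Of the INK4 inhibitor genes, Cdkn2a and Cdkn2b were listed at 0 in all 8 libraries. Cdkn2c and Cdkn2d were expressed, with shcontrol means of 54.48 and 15.35, and were not called.

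Of 12 subunits of the DREAM and MMB complexes, which repress and activate cell cycle genes, E2f4 rose without replicate 3. Among the 12 it alone was called there, where 1.09% of all tested genes were called higher and 2.06% lower. It encodes an E2F of the DREAM complex. Another E2F gene on this list, E2f5, was not called (log2 fold change 0.27 without replicate 3, adjusted p = 0.163 by limma). E2f4 had 63.0, 66.2, 44.4 and 67.6 in shEtv5, against 49.6, 47.6, 49.2 and 53.6 in shcontrol. All shEtv5 libraries but replicate 3 lay above all shcontrol libraries, with a log2 fold change of 0.39 (adjusted p = 0.0369 by limma), and over 8 libraries it was 0.25 (adjusted p = 0.863). Among the scalings and left-out libraries, the 7-library call was lost with equal sums, with quantile normalisation and when any further library but shcontrol replicate 3 was left out (adjusted p = 0.0548 to 0.160 in these). No gene of the 4 lists was called over 8 libraries. At an unadjusted p under 0.05 by limma, 2 of the 19 tested other G1/S regulators and CDK inhibitors passed there (10.5%), against 7.09% of all tested genes. On the other lists 0 passed.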

How the data were processed

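RNA of 8 libraries of 4T1 cells was analysed, 4 shEtv5 and 4 shcontrol, grouped and numbered by the sample titles. Libraries were made with a TruSeq RNA kit, per the labels' protocols, which name 2 RNA extraction methods without saying which library had which. Reads were aligned with STAR 2.7.10a to mm10, per the submitters' processing notes. The deposited values are a signal, the scaled coverage of each gene, in columns that derive from bedGraph tracks per the file headers. They were read as mean coverage per base of a gene, which was not tested. The sources used here give neither the program nor its annotation, its scaling or its use of strand, so reads of overlapping genes cannot be told apart.

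Values were tested as log2(value + 1), with limma 3.58.1 (R 4.3.3) and a trend of the prior variance with the mean, without covariates. A gene was tested if it reached 0.5 in 4 or more libraries, with Benjamini-Hochberg adjustment over all genes tested. This was the planned test for values that are not counts. This scale makes the fold change of a low gene too small. The fit was made with all 8 libraries and without shEtv5 replicate 3. The members, lists and tests were chosen with earlier results of these data known. Library values were given for members called in either fit, for the 4 S-phase and 4 G2/M members with the smallest adjusted p without shEtv5 replicate 3, for the largest and smallest log2 fold change of each list over 8 libraries, and for E2f1, Foxm1, Ccnd1, Ccne1, Mki67, Pcna and Top2a, 17 in all. The values of Cdt1, Birc5, Cdkn1a, Mcm2, Mcm3, Tyms, Bub1b and Kif20a, and the calls of cell type markers, were added after they were seen. Of the pathway lists, called genes were named, or else the 2 with the smallest adjusted p.

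Coordinates and lengths came from GENCODE mouse release 21 on mm10, with the longest APPRIS principal transcript of a gene. A length was found for 97.7% of rows, and all 140 genes of the pathway lists were found, 3 by another symbol. Of the members, 11 share over 10% of their 50-base stretches with another gene and 15 share none. The 11 are Mcm7, Gins2, Pcna, Tyms, Ccnd1, Ccne2, Ccna2, Ccnb1, Cdc20, Plk1 and Kif20a. Promoters came from RefSeq. The fit was tested on simulated data. The alternatives were median-of-ratios scaling, equal sums, quantile normalisation, no filter, a filter at 1, a pseudocount of 0.1, a replicate block, each library's lowess trend with length subtracted (span 0.3), each library left out and, added after seeing the data, trends with length and GC content subtracted.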

Additional observations from a re-analysis of the deposited data

Results flagged for a closer look

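Each group of 4 libraries was screened for a library whose gap to its nearest neighbour was large for the group's range (Dixon's ratio above its 95% critical value). Of 96 groups screened, over the 43 members and 5 library measures, 22 passed, where chance gives about 4.8, and 16 of the 22 were shEtv5 replicate 3.

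In that library 8 members were far below the rest of their group: Mcm3 at 55.4, Mcm4 at 17.2, Mcm10 at 8.50, Rrm2 at 29.0, Tyms at 9.89, Pole at 5.93, Kif20a at 13.1 and Foxm1 at 16.4, all as coverage values. The other 3 members that passed there were far above: Gins2 at 29.1, Cdk1 at 80.4 and Birc5 at 54.8. The same library stood apart in its sum of values (390495), its genes above 0 (13920), its ribosomal protein share (21.2%), its S-phase median (-0.305) and its G2/M median (-0.595), both on the log2 scale relative to shcontrol.

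In shcontrol, replicate 3 was far from the rest of its group in Cdt1 (110.0, highest), Cdc20 (77.1, highest), Ccnd1 (419, lowest) and genes above 0 (15126, lowest). Mcm3 was lowest in shcontrol replicate 1 (62.5), and the G2/M median was highest in shcontrol replicate 4 (0.0528).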

How the results depend on the processing

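Over 8 libraries 0 of 43 members were called under any of the 17 other settings. Without shEtv5 replicate 3, 1 member was called higher with no filter (Rrm2, adjusted p = 0.0392 by limma), 5 with the length trend removed and 9 with the length and GC trends removed, and 1 lower (Mcm7) with either trend correction. When a further library was left out, between 0 and 4 members were called higher, the 4 without shcontrol replicate 3. The count of members at an unadjusted p under 0.05, 11 without shEtv5 replicate 3, was 5 when shEtv5 replicate 1 and 7 when shEtv5 replicate 2 or shcontrol replicate 2 was left out as well, against 12.3% to 13.6% of all genes in these. This count was 8 without shcontrol replicate 1 (15.9% of all) and 16 without shcontrol replicate 3 (25.9%). It was 13 without shEtv5 replicate 4 (19.4%) or shcontrol replicate 4 (20.1%). With an arm of few libraries, the spread is pooled with the other group. Over all genes tested, called higher and lower were 0 to 127 and 20 to 241 over the 8-library settings (1 and 57 as reported), and 11 to 735 and 83 to 709 over the 7-library settings (127 and 241 as reported).

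Median-of-ratios scaling put the median of all genes at 0.023 over 8 libraries, against -0.114 as deposited. With it the S-phase median was 0.15 and the G2/M median 0.17. Without shEtv5 replicate 3 the S-phase median was 0.13 with equal sums and 0.05 with length and GC trends removed, the G2/M median was 0.21 and 0.11 in these, and it ran from 0.15 to 0.22 when a further library was left out. The G2/M minus S-phase difference was 0.12 with quantile normalisation. Directions were read from values rounded to 2 decimals. Of the 17 members with library values, 8 kept their direction over 8 libraries and 13 without shEtv5 replicate 3. Over 8 libraries the log2 fold change of Pcna was -0.06 with equal sums and -0.10 with quantile normalisation, and that of Plk1 -0.06 with equal sums. With median-of-ratios scaling Ccnd1 was at 0.08, E2f1 at 0.06 and Ccnb1 at 0.01. With the length trend removed Ccnd1 was at 0.06, E2f1 at 0.02 and Top2a at 0.01, and with length and GC trends removed at 0.06, 0.03 and 0.01. Leaving out 1 library gave ranges of -0.51 to 0.01 for Mcm4, -0.05 to 0.14 for Pcna, -0.01 to 0.28 for Ccna2, -0.33 to 0.22 for Ccnb1, -0.07 to 0.24 for Plk1, -0.35 to 0.16 for Top2a and -0.02 to 0.35 for Mki67. Without shEtv5 replicate 3, Mcm4 was at -0.02 with quantile normalisation, -0.01 with the length trend removed and -0.06 with both trends removed. Ccnd1 was at 0.02 with equal sums and 0.07 with quantile normalisation, E2f1 at 0.02 with equal sums and 0.05 with both trends removed, and Kif23 at 0.01 with equal sums. Leaving out a further library gave -0.02 to 0.04 for Mcm4, -0.07 to 0.04 for E2f1 and -0.12 to 0.04 for Kif23. The cause of these shifts was not tested.

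Of the 4 pathway lists over 8 libraries, 1 gene (Ccng2) was called lower with quantile normalisation, with the length trend removed and with both trends removed, and leaving out 1 library gave 0 to 1 called in each direction. Without shEtv5 replicate 3, 9 of the 140 listed genes were called higher and 4 lower with the length trend removed, against 4.36% and 4.82% of all tested genes. With both trends removed the counts were 15 and 7, against 6.38% and 6.16% of all. With the replicate block 0 were called higher, and E2f4 had an adjusted p of 0.0657 by limma. Leaving out a further library gave 0 to 8 higher and 1 to 3 lower, the most without shcontrol replicate 3 (3.59% and 5.25% of all).

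Same-numbered shEtv5 and shcontrol libraries deviated together with correlations of 0.55, 0.09, 0.79 and 0.51 for replicates 1 to 4. Not every library correlated best with its own number, so the numbers were not taken as pairs. The replicate block gave 0 called members in both fits, with 50 genes called lower over 8 libraries and 212 without shEtv5 replicate 3. Read depth is unknown, so no counting error can be given, and 3 or 4 libraries a group limit what the test can resolve.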
